A study of Mus musculus with 2 samples.

Results

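Gpha2 encodes the alpha-2 subunit of a glycoprotein hormone, and is 1 of the 20198 genes counted here in single cells of the mouse cornea. It was chosen because earlier results of these data showed high counts both in a limbal cluster of epithelial cells and in stromal cells, so its levels are given as a description with no test. Corneas were taken from male mice aged 6 to 8 weeks, and the strain is not given in the sources used here. The UW library pooled the cells of 4 unwounded mice. The W library pooled the cells of 4 mice taken 24 h after the central epithelium, within a circle of 2.5 mm, had been scraped off while the stroma below was left in place. No mouse of either library carried a transgene or received a further agent as far as the sources say, apart from anaesthetics and, on wounded eyes, a fluorescein stain and ofloxacin. With 1 library per condition, a difference between UW and W is a difference between 2 pools, and no p-value was computed.

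The GPHA2 protein pairs with the beta subunit GPHB5 to form thyrostimulin, a hormone that activates the thyrotropin receptor TSHR. In the mouse eye Gpha2 is best known as a marker of limbal epithelial stem cells that divide rarely, which sit in the basal layer at the rim of the cornea. The stroma under the epithelium is made by keratocytes, flat cells that secrete collagens and the small proteoglycans keratocan (Kera), lumican (Lum) and decorin (Dcn).

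In GENCODE release M21 the gene (ENSMUSG00000024784.13) spans chr19:6226380-6227768 on the plus strand of GRCm38, a stretch of 1389 bases with 2 transcripts of 4 exons each and 384 coding bases before the stop codon. The bases directly upstream of this annotated start are shown as the putative promoter, and which start each cell type uses was not tested. RefSeq places the start at base 6226401. The printed bases cover chr19:6226151-6226379 on the plus strand (GRCm38.p6, sequence from RefSeq), with a GC box in capitals.
Gpha2 promoter: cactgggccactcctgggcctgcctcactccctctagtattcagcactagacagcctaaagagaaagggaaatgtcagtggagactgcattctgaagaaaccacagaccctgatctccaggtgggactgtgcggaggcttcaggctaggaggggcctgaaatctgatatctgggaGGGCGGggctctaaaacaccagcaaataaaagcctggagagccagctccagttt

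The window held 229 bases with 54.1% G and C. The GC box, spelled GGGCGG and searched on both strands, occurred 1 time, with its first base 54 bases before the annotated start, and 29.7% of 32851 promoter windows of the same length held it. An E-box, spelled CANNTG, also occurred 1 time, as it did at least so often in 63.4% of windows. The TATA box, searched as TATAAA, was not found in these letters, and 11.7% of windows held it. The same was true of an AP-1 motif spelled TGANTCA, which 6.33% of windows held, and of a STAT motif spelled TTCNNNGAA, which 6.46% held. The E-box overlapped no other motif found.

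The UW library held 16450 cells with 367166822 UMIs (unique molecular identifiers, each counting 1 captured RNA molecule), and the W library 12417 cells with 289586482 UMIs. The median depth was 22014 UMIs per cell in UW and 20290 in W. Between the libraries 52 cell barcodes were shared, and results without them are given with the processing alternatives. A Gpha2 UMI was found in 6965 UW cells and in 10119 W cells. Per library, the Gpha2 level was 133.6 CPM in UW and 797 CPM in W, where CPM is the counts of a gene per 1000000 counts of the same cells.

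Cells were grouped by the 17 cluster numbers of the deposited cell table, which gives no names, and each number was set against fixed marker lists. Each score is the mean over a list of the log2 ratio of the cluster's CPM to the CPM of all other cells. UW and W cells were pooled for it, with a small offset added to both levels. Cluster 9 scored 1.28 for basal epithelium and 0.715 for limbal epithelium. Cluster 9 had 6 of 8 limbal markers above the other cells, and its leading gene was the limbal marker Wfdc18. It is therefore a basal epithelial cluster with limbal markers, in which the basal list stood above the limbal list. Cluster 0 scored 3.97 for corneal stroma, was led by Kera and had 7 of 7 stromal markers above the other cells, and is called stroma-like. Cluster 10 scored 3.17 for stroma and 4.72 for corneal endothelium. It was led by Penk, Myoc, Wisp2, Igfbp6 and Col8a1, and was left unnamed. Cluster 5 scored highest for conjunctival epithelium (3.0), cluster 8 for mitosis (5.16) and cluster 3 for basal epithelium (2.02), while clusters 13 to 16 were immune. Since the clusters were made from the same counts, Gpha2 may have taken part in drawing their borders.

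In unwounded corneas the Gpha2 level was highest in cluster 9, with 1945.5 CPM (95% Poisson interval 1914 to 1977, n = 521 cells). Next came stroma-like cluster 0 with 821 CPM (811 to 832, n = 2369 cells) and cluster 10 with 234 CPM (222 to 247, n = 565 cells). These intervals, like all those below, cover counting error only and not the spread between mice. Cluster 5 followed with 108 CPM, cluster 8 with 79.7 CPM, cluster 11, led by DNA replication genes such as Mcm3 and Ung, with 62.4 CPM, and basal cluster 3 with 42.2 CPM. The remaining epithelial clusters 1, 2, 4, 6 and 7 lay between 10.2 and 19.9 CPM. In this order the intervals of neighbouring clusters overlapped for clusters 6 and 7 and for clusters 4 and 1, and for no other neighbours.

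In wounded corneas, among clusters with at least 50 cells, cluster 9 moved from the first place to the third. Cluster 0 held 4206 CPM (4184 to 4229, n = 1719 cells), cluster 10 held 2611 CPM (2576 to 2646, n = 632 cells) and cluster 9 held 1412 CPM (1397 to 1426, n = 956 cells). Below them the levels ran from 323 CPM in immune cluster 13 to 54.5 CPM in cluster 2. Overlapping intervals were found here for clusters 13 and 8, 14 and 11, 3 and 15, 7 and 6, 6 and 4, and 4 and 2. Cluster 17, with 29 cells of the W library alone, reached 4437 CPM. It was led by immune genes such as Cxcl9 and Acod1, while its marker scores were 2.16 for stroma and 1.75 for immune cells, and it was left unnamed.

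**Figure D1:**
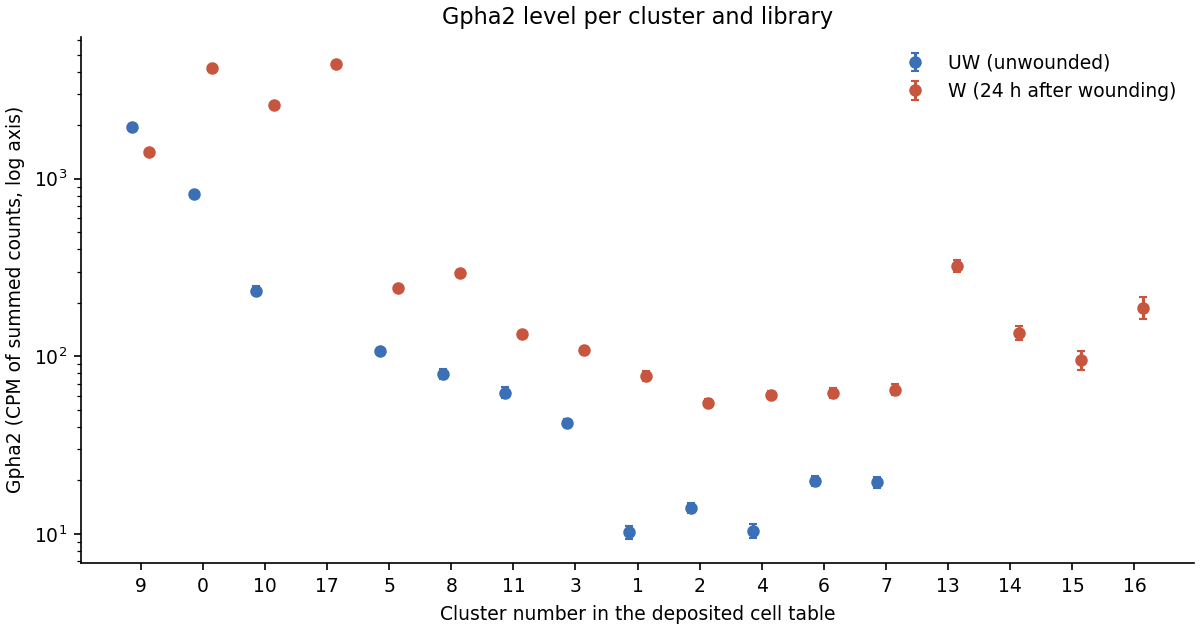
Gpha2 level in CPM of summed counts on a log axis, per cluster of the deposited cell table, in the UW library (blue) and the W library (red), with exact 95% Poisson intervals of counting error that are mostly smaller than the points. Cluster 9 was the highest UW point at 1945.5 CPM, and clusters 0 and 10 were above it in W at 4206 and 2611 CPM.

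In cluster 9 the median cell carried 24 Gpha2 UMIs in UW and 28 in W, against a median depth of 13944 and 24009 UMIs per cell. Relative to depth the level was lower in W, with a log2 ratio of W to UW of -0.46 (-0.49 to -0.43), or 0.726 of the UW level. Of the 5884 genes measured in this cluster (those with 20 or more counts, and 20 CPM or more in UW or W), 6.65% were lower by at least 1 on the log2 scale, and Gpha2 was not among them, ranking 1533 from the lowest. In cells thinned to 5000 UMIs, so that depth was equal, 69.7% of UW cells and 59.6% of W cells kept 5 or more Gpha2 UMIs, and 6.93% and 6.0% kept none. At full depth a UMI was found in 96.7% (94.8 to 98.1) of UW and 99.6% (98.9 to 99.9) of W cells of cluster 9, a measure near its ceiling in W, where 57.7% of immune cells also had a UMI. The tenth of cells with the highest counts held 28.1% of the cluster's Gpha2 UMIs in UW and 29.8% in W, a smaller part than in clusters 0 and 10.

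In stroma-like cluster 0 the Gpha2 level was 5.12 times as high in W as in UW, a log2 ratio of 2.36 (2.34 to 2.38). The median cell carried 2 UMIs in UW and 43 in W, and the 90th percentile was 27 and 211. Here 4.41% of 6264 genes were higher by at least 1 on the log2 scale, and Gpha2 ranked 85 from the highest. The median log2 ratio of all genes measured in this cluster was -0.11. A UMI of Gpha2 was found in 73.5% (71.7 to 75.3) of UW cells and 96.3% (95.3 to 97.1) of W cells. After thinning to 5000 UMIs the shares of cells with at least 1 UMI were 60.1% and 87.0%, those with at least 5 were 24.0% and 66.4%, and those with at least 20 were 4.83% and 40.1%. In UW the tenth of cells with the highest counts held 58.5% of the cluster's Gpha2 UMIs, and in W 38.2%.

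In cluster 10 the level was 11.1 times as high in W, with a log2 ratio of 3.48 (3.40 to 3.56), where 3.73% of 6323 genes were higher by at least 1 and Gpha2 ranked 25 from the highest. The median cell carried 0 UMIs in UW and 4 in W, while the 90th percentile went from 6 to 113. The transcript was unevenly spread, as 59.3% of the W cluster's Gpha2 UMIs were held by the tenth of cells with the highest counts. In thinned cells, 71.1% of UW and 28.7% of W cells kept no Gpha2 UMI, and 6.58% and 38.5% kept 5 or more. Markers of cluster 10 also differed between UW and W, with Kera at 2747 and 795 CPM and Col3a1 at 132 and 335 CPM. Of the endothelial list, Col8a1 was at 306 and 211 CPM, Col8a2 at 710 and 666 CPM and Slc4a11 at 53.9 and 6.97 CPM. The part of the cluster's make-up in the Gpha2 ratio was not tested. Clusters 0 and 10 together held 17.8% of UW cells and 50.3% of that library's Gpha2 UMIs. In W they held 18.9% of cells and 68.5% of the Gpha2 UMIs, and the epithelial clusters 1 to 9 and 11 held 29.8%, down from 49.7% in UW.

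**Figure D2:**
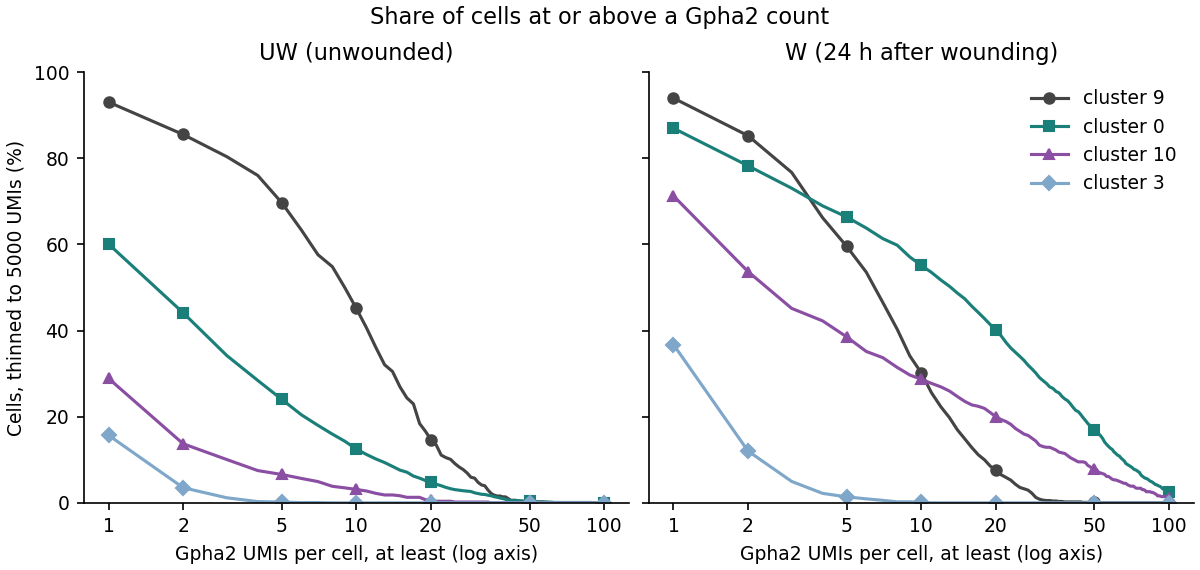
Share of cells, in percent after thinning each cell to 5000 UMIs, with at least the number of Gpha2 UMIs given on the log x axis, for clusters 9, 0, 10 and 3 in UW (left) and W (right). Cells with at least 20 UMIs made up 14.7% of cluster 9 and 4.83% of cluster 0 in UW, and 7.58% and 40.1% in W.

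The other epithelial clusters were set beside immune cells, which should lack the gene, because RNA free in the droplets can give a UMI to any cell. In W the immune clusters 13 to 16 had a Gpha2 UMI in 57.7% (55.2 to 60.2) of 1530 cells, and each of them had a median of 1 UMI and a mean of 0.835 to 1.41 UMIs per cell. The UW library held 15 such cells with 2 Gpha2 UMIs in all, so the background there could not be measured in the same way. In W the epithelial clusters 1, 2, 4, 6 and 7 had a UMI in 68.0 to 75.6% of cells, with medians of 1 and means of 1.41 to 1.88 UMIs, at a median depth of 20584 to 22368 UMIs per cell against 2509 to 10144 in the immune clusters. At full depth these shares were above those of the immune clusters (54.0 to 62.9%), and after thinning to 2000 UMIs they were below them, with shares of 12.4 to 15.1% against 16.3 to 47.6%. The order thus turned with the depth at which cells were compared, and the part of free RNA in the log2 ratios of W to UW in these clusters (1.65 to 2.93) was not tested. The shares of genes higher by at least 1 were 7.74% in cluster 1, 6.35% in cluster 2, 6.93% in cluster 4, 9.28% in cluster 6 and 14.1% in cluster 7.

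Basal cluster 3 held 42.2 CPM in UW and 108 CPM in W, with a log2 ratio of 1.36 (1.26 to 1.45), where 10.4% of 5741 genes were higher by at least 1. In W its cells had a mean of 2.76 and a median of 2 Gpha2 UMIs, above those of the immune clusters, while its share of cells with a UMI after thinning to 2000 was 17.4%, within their range. The same held for cluster 5 with a mean of 7.31 UMIs and a thinned share of 33.5%, for cluster 8 with 10.8 and 30.04%, and for cluster 11 with 4.75 and 24.2%. The top of that range was 47.6% in cluster 13, whose median cell had 2509.5 UMIs. Clusters 14, 15 and 16 had 20.6%, 16.3% and 27.8%, so clusters 5 and 8 were above every immune cluster except cluster 13. Clusters 5 and 8 held cells with many Gpha2 UMIs. In cells thinned to 5000 UMIs, 4.22% of UW and 7.33% of W cells of conjunctival cluster 5 kept 5 or more, and 1.96% and 8.45% of mitotic cluster 8. In W this share was 1.39% in cluster 3. In the immune clusters it was 1.95% of 256 cells in cluster 14, 2.78% of 72 in cluster 16, and 0% of 242 in cluster 15 and of 7 in cluster 13. Left out as shallower were 98 of 354, 143 of 215, 9 of 251 and 703 of 710 cells of these clusters. The log2 ratios of W to UW were 1.17 in cluster 5 (5.42% of genes higher by at least 1), 1.88 in cluster 8 (6.17%) and 1.10 in cluster 11 (8.99%).

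Free RNA from a single source adds its genes to every cluster of a library in the same ratio. Gpha2 was therefore set against Krt12, Krt5 and Krt14, the keratins of the corneal epithelium. In W the immune clusters held 1.11 to 3.32 Gpha2 UMIs per 100 UMIs of these keratins, and cluster 9 held 7.89 (7.80 to 7.98). Cluster 0 held 212 (210.1 to 214) and cluster 10 held 109.7 (107.6 to 111.8). In UW the ratio was 12.9 in cluster 9, 39.7 in cluster 0 and 9.70 in cluster 10, and between 0.0193 and 0.827 in the other epithelial clusters. The summed keratin level of cluster 0 was 2070 CPM in UW and 1983 CPM in W, a sum in which Krt12 went from 1554 to 736 CPM and Krt14 from 57.4 to 821 CPM. The direction depended on the keratin chosen. Krt14 itself was higher in W in every epithelial cluster, with 136 CPM in UW and 17124 CPM in W in cluster 1, and 1256 and 14011 CPM in cluster 3. Against Krt14 alone, the basal cell keratin, cluster 0 held 1431 Gpha2 UMIs per 100 in UW and 512 in W, cluster 10 held 265 and 260.5, and cluster 9 held 31.4 and 12.0, with 3.61 to 7.96 in the W immune clusters. In UW, clusters 2, 6 and 7 were above cluster 9 by this measure, with 35.6, 49.4 and 40.3. Their Krt14 levels were low, with 39.3, 40.3 and 48.4 CPM against 6197 CPM in cluster 9. Their Gpha2 levels were at most 19.9 CPM, against 1945.5 CPM in cluster 9. Among W clusters with at least 50 cells, clusters 0 and 10 had the highest ratios by either measure and cluster 9 came next, and the immune clusters also differed among themselves. The part of free RNA was not tested. In the cells below the median keratin share, the log2 ratio of W to UW was 2.10 in cluster 0 and 3.43 in cluster 10.

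**Figure D3:**
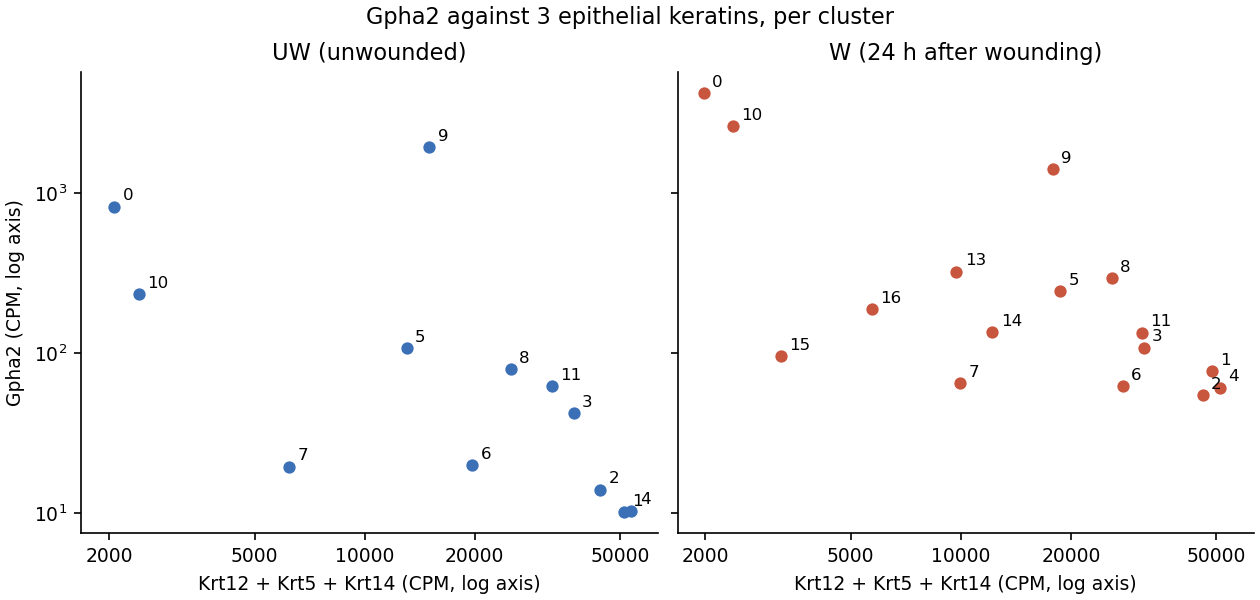
Gpha2 level against the summed level of Krt12, Krt5 and Krt14, both in CPM on log axes, for each cluster with at least 50 cells in UW (left) and W (right), with cluster numbers beside the points. In both libraries clusters 0 and 10 had the lowest keratin levels, and in W they had the highest Gpha2 levels, 4206 and 2611 CPM.

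Within cluster 9 of the unwounded cornea, cells with more Gpha2 had less Krt12 and Aldh3a1 and more Krt14 and Ifitm3. Cells thinned to 5000 UMIs were put in bins of 0, 1 to 4, and 5 or more Gpha2 UMIs, which held 35, 118 and 352 UW cells. Krt12, the keratin of differentiated corneal epithelium, was at 10240, 7769 and 2766 CPM in these bins. Aldh3a1, a corneal crystallin, was lower in the same order with 7069, 4886 and 2220 CPM. Krt14, the keratin of basal cells, ran the other way with 4406, 5110 and 7059 CPM, as did Ifitm3, an interferon-induced membrane protein used to mark limbal stem cells, with 589, 775 and 1134 CPM. Krt15, a keratin on the limbal list, was lower in the bin without Gpha2 (1994 CPM) than in the other bins (3797 and 3759 CPM), though it did not mark cluster 9 in UW, with 3740 CPM there and 23158 CPM in conjunctival cluster 5. In all, 7 of 8 limbal markers were higher in the high bin than in the bin without Gpha2, though Lrig1 hardly differed (57.4 and 57.1 CPM) and the remaining marker, Abcg2, was at 2.27 and 5.71 CPM, the latter 1 UMI. Of the corneal list, 3 of 4 were lower, while Pax6, the transcription factor of the eye lineage, was at 373 CPM in the high bin and 291 CPM without Gpha2. Of the basal list, 3 of 4 were lower, with Col17a1, a hemidesmosome collagen, at 1177, 944 and 714 CPM over the bins, and Lamb3 alone was higher. The 4 conjunctival markers were at higher values in the high bin. Krt17 was at 526, 1068 and 1553 CPM, but in UW it was lower in conjunctival cluster 5 (627 CPM) than in cluster 9 as a whole (1388 CPM), and Krt19 was at 5.71 and 6.82 CPM in the outer bins, where 5.71 CPM is 1 UMI.

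In W the bins of cluster 9 held 57, 327 and 566 cells. Krt12 was at 1635, 1504 and 1023 CPM, Krt14 at 12463, 11009 and 11042 CPM, and Ifitm3 at 2077, 2146 and 2158 CPM, with smaller ratios between the outer bins than in UW and with Krt14 lower, not higher, in the high bin. Other genes varied more in W, such as Trp63, a transcription factor of basal cells, with 84.2, 108.3 and 152 CPM in W and 154, 151 and 183 CPM in UW. All 4 basal markers were higher in the high bin in W, and Col17a1 ran against its direction in UW with 347, 459 and 606 CPM. Of the conjunctival markers 3 were lower, and Krt4 hardly differed (284 CPM without Gpha2 and 283 CPM in the high bin). Of the mitosis list, 4 of 4 genes were lower in the high bin in W and 3 of 4 in UW. Mki67 was at 73.7, 59.3 and 32.2 CPM in W and 40.0, 32.2 and 10.2 CPM in UW, while Ube2c in W hardly differed between the outer bins (63.2 and 58.7 CPM), and Top2a in UW (5.71 and 7.95 CPM) rested on 1 UMI in the bin without Gpha2. The full depth of these cells differed as well, with medians of 34696, 27154 and 22271 UMIs in W and 17335, 15600 and 13705 UMIs in UW, and its part was not tested. Among the genes with the largest differences, chosen after their values were seen, Wnt10a, a secreted Wnt ligand, was at 193 CPM in W cells of the high bin and 39 CPM in those without Gpha2, and the cornified envelope gene Sprr1a was at 37 and 147 CPM. The neutrophil markers S100a8 (372, 172 and 105 CPM) and S100a9 (302, 166 and 111 CPM) were also lower over these bins. Of the 7 immune markers 2 were higher in the high bin, 3 were lower and 2 were equal, with Ptprc, the pan-leukocyte surface phosphatase, at 0 in both outer bins, and their part was not tested.

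In stroma-like cluster 0 of the UW library the abundant markers differed little between bins. Kera stood at 7376, 7545 and 7604 CPM in 925, 836 and 557 cells, Ifitm3 at 959, 974 and 980 CPM, and Krt12 at 1570, 1589 and 1611 CPM. Of the stromal list, 4 of 7 were higher and 3 lower in the high bin. Scarcer markers varied more, with Col3a1 at 10.8, 16.3 and 22.3 CPM and Trp63 at 7.35, 5.50 and 2.15 CPM. Of the genes chosen after their values were seen, Crabp2, which binds retinoic acid, was at 132 CPM without Gpha2 and 218 CPM in the high bin, and the apolipoprotein Apoe at 6255 and 3760 CPM.

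In W the bins of cluster 0 (222, 352 and 1134 cells) differed in keratocyte genes, and 5 of 7 stromal markers were higher in the high bin. Kera was at 1842, 2479 and 2989 CPM, Col1a1 at 3391, 4267 and 5818 CPM, and Dcn at 17310, 20860 and 25704 CPM. All 4 corneal epithelial markers were higher too, with Krt12 at 667, 728 and 793 CPM and Aldh3a1, which keratocytes also make, at 1993, 2465 and 3007 CPM, as was Krt14 at 754, 822 and 877 CPM. Ifitm3 went the other way with 6586, 6072 and 4987 CPM. The genes that follow were chosen after their values were seen. The lower genes with the largest differences were Mmp12, the macrophage metalloelastase (115 CPM without Gpha2 and 14.6 CPM in the high bin), the T cell chemokine Ccl5 (261 and 64.9 CPM) and Spp1, which encodes osteopontin and is also made by macrophages (103 and 19.6 CPM). Of the 7 immune markers 4 were higher in the high bin and 2 were lower, with Ptprc at 1.80, 0.568 and 0.529 CPM over the bins, and the part of immune cells or their RNA was not tested. The metalloproteinase Mmp3 was at 6718 CPM in cells without Gpha2 and 2892 CPM in the high bin, the chemokine Ccl2 at 1320 and 537 CPM, and Timp1, an inhibitor of metalloproteinases, at 732 and 290 CPM. Genes higher in the high bin included another chemokine, Cxcl5 (29.7 and 162 CPM), another metalloproteinase inhibitor, Timp3 (43.2 and 109.9 CPM), the neurotrophin receptor Ntrk2 (506 and 1022 CPM) and Igfbp4 (790 and 1574 CPM), which binds insulin-like growth factors. The median full depth was 22355, 19345 and 16775 UMIs per cell in these bins, and its part was not tested.

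In cluster 10, W cells with more Gpha2 had more Kera and less Col3a1. In the bins of 178, 203 and 239 W cells Kera was at 297, 562 and 1309 CPM, while the collagen Col3a1 was at 766, 275 and 80.3 CPM. Lum (5128, 5711 and 5699 CPM) and Col1a1 (6521, 6221 and 6848 CPM) varied little. In UW, where the high bin held 36 cells, Kera was at 2484, 2716 and 3289 CPM and Col3a1 at 197, 108 and 61.1 CPM. Median full depth in W was 12204, 12031 and 12925 UMIs per cell. The neutrophil markers S100a8 (154, 18.7 and 31.0 CPM) and S100a9 (233, 53.2 and 57.7 CPM) moved with these bins as well, and of 7 immune markers 0 were higher in the high bin, 4 were lower and 3 were at 0 in both outer bins. Their part was not tested. Angptl7, a secreted protein abundant in the stroma, was at 899 CPM in W cells without Gpha2 and 3140 CPM in the high bin, and the interferon-induced chemokine Cxcl10 at 588 and 68 CPM, both chosen after their values were seen. In W Krt12 was at 958, 903 and 879 CPM and Krt14 at 1116, 1130 and 995 CPM. In UW Krt12 was at 1887, 1805 and 1928 CPM, and Krt14 was higher with more Gpha2 at 72.5, 98.4 and 128 CPM.

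**Figure D4:**
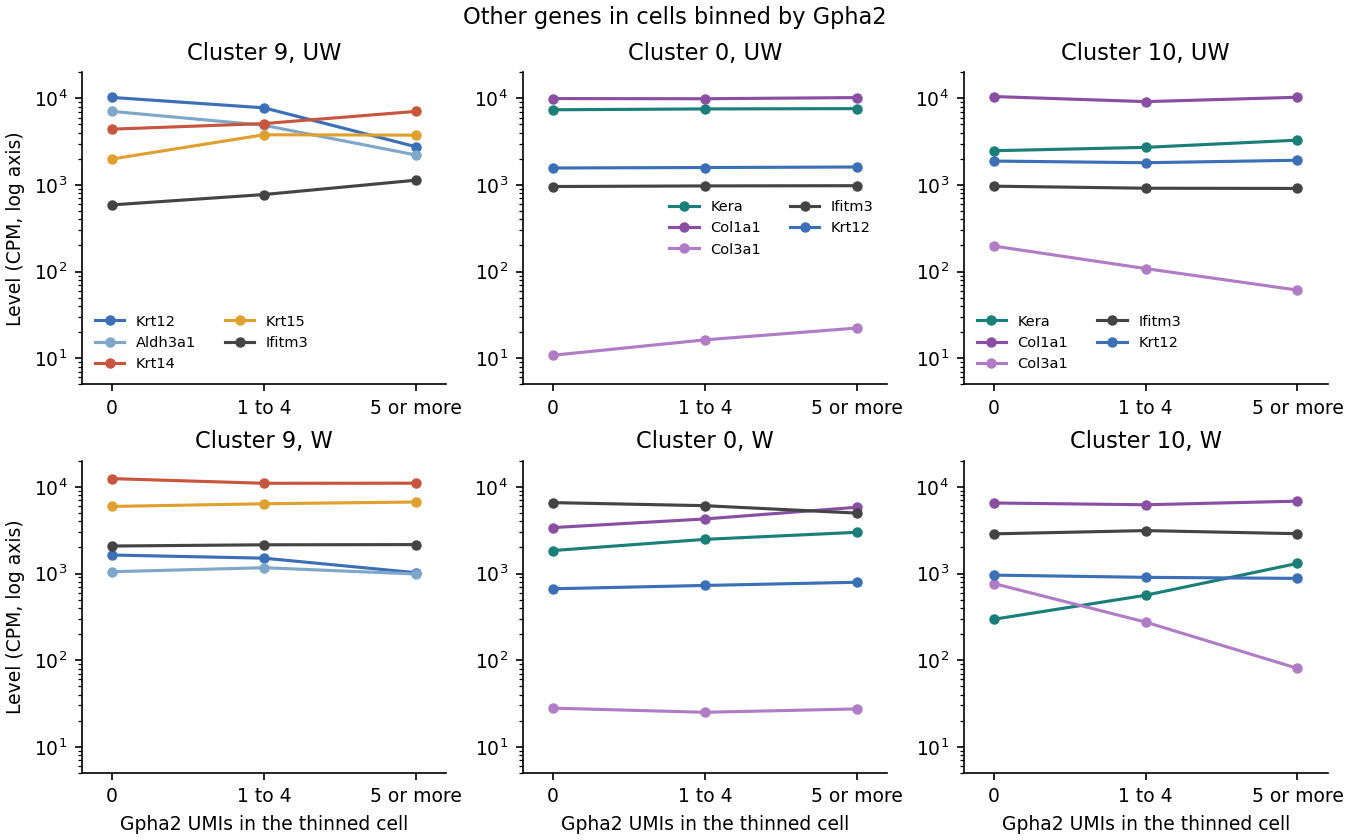
Level of marker genes (CPM, log axis) in cells thinned to 5000 UMIs and binned by their Gpha2 UMIs, for clusters 9, 0 and 10 (columns) in UW (top row) and W (bottom row), each point a mean over the cells of a bin. Krt12 went down from 10240 to 2766 CPM across the bins of UW cluster 9, and in W cluster 10 Kera went up from 297 to 1309 CPM while Col3a1 went down from 766 to 80.3 CPM.

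The high bins of clusters 5 and 8 are described from genes chosen after their values were seen. In the bins of W cluster 9, thinned in the same way, Wfdc18 was at 533, 886 and 744 CPM, Krt12 at 1635, 1504 and 1023 CPM and Krt19 at 80.7, 60.6 and 40.3 CPM. In W cluster 5, cells with 5 or more Gpha2 UMIs had 1370 CPM of Apoe and 584 CPM of Igfbp2 against 363 and 159 CPM in cells without it, and 221 CPM of Krt19, a conjunctival keratin, against 2162 CPM. In W cluster 8, Wfdc18 was at 234 CPM in the high bin and 18 CPM without Gpha2, and Krt12 at 1923 and 9798 CPM. Of the 8 limbal markers there, 5 were higher in the high bin and 3 were lower. The lower ones were Krt14 (11342 and 12478 CPM), Ifitm3 (1917 and 2114 CPM) and Abcg2 (1.80 and 3.02 CPM). Of the mitosis list in that cluster, Mki67 was at 279 CPM in the high bin and 170 CPM without Gpha2, Top2a at 378 and 223 CPM, and Ube2c at 324 and 333 CPM.

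Genes with a pattern like that of Gpha2 were sought over 28 sums of counts, for each cluster with at least 50 cells in a library, by Pearson's r of log2(CPM + 1) among the 9702 genes that reached 20 CPM in any sum. The sums of a library share its cells' pool and free RNA, and the values are descriptions. The highest was Rarb, the retinoic acid receptor beta, with r = 0.938. It stood at 31.4 CPM in W cluster 0, 8.68 CPM in UW cluster 0 and 7.48 CPM in UW cluster 9, where it was at 10.3 CPM in W, against 0.392 CPM in UW cluster 1. Cp, which encodes the copper-carrying ferroxidase ceruloplasmin, came next with 0.929, and was at 52.0 CPM in cluster 9 of UW and 24.7 CPM in W, and at 20.7 and 61.9 CPM in cluster 0. The genes were chosen for their likeness over sums that include both clusters, and not all ran like Gpha2 in them, with Tpm1 at 142 CPM in UW and 185 CPM in W in cluster 9. Of the 10 genes most like Gpha2, 4 were higher in W in cluster 9. Lower in W in cluster 9 and also higher in W in cluster 0, like Gpha2, were 5 of the 10. The others of the 10 were Tpm1 (0.907), Csrp2 (0.904), Tmem176a (0.900), Tmem176b (0.896), Mgst1 (0.894), Col23a1 (0.889), Adgra3 (0.888) and Rnase4 (0.887). Col23a1, a membrane collagen, went from 19.4 to 11.1 CPM in cluster 9 and from 67.8 to 177 CPM in cluster 0.

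In the 12 UW sums alone, the genes most like Gpha2 were Chrac1 (0.965), Cp (0.963), Eva1c (0.958), Ifitm3 (0.957) and Wnt5b (0.956). In the 16 W sums they were Tfap2b (0.964), Aff3 (0.960), Spats2l (0.957), Tgfb2 (0.953) and Adgra3 (0.952). Of the limbal list, Cd63, a tetraspanin, had r = 0.824 and Ifitm3 0.744 over all sums, while Krt14 had 0.355 and Krt15 -0.23. The values were negative for Krt12 (-0.80) and for the superficial cell gene Lypd2 (-0.85). Stromal markers that reached 20 CPM lay between 0.561 for Kera and 0.642 for Lum.

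Of the 8 genes in the list of glycoprotein hormones and their receptors, Gphb5 and Tshr were analysed here, and the other 6 were not. Gphb5, the partner subunit in thyrostimulin, had 33 UMIs in 24 UW cells and 319 UMIs in 178 W cells. Cluster 9 held 9 of these UMIs in 5 cells of UW and 149 in 76 cells of W. This was 1.18 CPM (0.540 to 2.24) and 5.99 CPM (5.06 to 7.03), a log2 ratio of 2.34 (1.38 to 3.50). The intervals take UMIs of the same cell as separate counts. Gphb5 was under 20 CPM and so not among the genes behind the shares given above. Cluster 5 held 1 UMI in UW and 80 in W, and cluster 8 held 10 and 55. In stroma-like cluster 0, which held the most Gpha2 UMIs of W, 1 and 4 UMIs of Gphb5 were counted, or 0.0352 CPM (0.00089 to 0.196) and 0.123 CPM (0.0336 to 0.316), and in cluster 10 0 and 1. The receptor gene Tshr had 6 UMIs in UW and 12 in W over all cells, too few to compare.

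The genes within 50 kb of Gpha2 were checked because reads of neighbours can be assigned to each other. Ppp2r5b, a regulatory subunit of protein phosphatase 2A, lies on the opposite strand and overlaps the last 4 bases of Gpha2. Its log2 ratio of W to UW was 0.37 in cluster 9, 0.38 in cluster 0 and 0.63 in cluster 10. Majin, which tethers telomeres to the nuclear envelope in meiosis, ends 2155 bases upstream on the same strand. In cluster 9 it was at 20.5 CPM in UW and 19.7 CPM in W. In cluster 0 it was at 0.281 and 1.51 CPM, a log2 ratio of 2.42 (1.33 to 3.71), and in cluster 10 at 2.63 and 11.9 CPM, a log2 ratio of 2.18 (1.39 to 3.07). The W to UW direction of Majin thus matched that of Gpha2 in clusters 0 and 10, at levels far below it, and the assignment of single reads was not tested. Atg2a, a lipid transfer protein of autophagy, and Ehd1, of endosome recycling, had log2 ratios between 0.15 and 0.61 in these clusters. Mir194-2, Mir192 and Gm14963 were not analysed here.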

How the data were processed

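Corneas were digested with dispase, trypsin and collagenase, and single-cell RNA-seq libraries were made on the 10x Genomics 3' platform (kit V2 in the paper, v3 in the labels). The authors aligned reads with Cell Ranger 3.1.0 to the mm10 reference per the paper, while mm9 is named in the submitters' processing notes. Cells under 500 or over 8000 genes, cells over 10% mitochondrial UMIs and genes seen in fewer than 5 cells were left out. They removed doublets with DoubletFinder 2.0.3, and clustered cells in Seurat 3.2.2 at a resolution of 0.4. The deposited UMI counts per gene and cell are not normalized, and the deposited cell table gives the cluster number, depth and doublet calls as the authors made them. The table holds fewer cells than the study states, with 501 to 7570 genes and up to 9.99% mitochondrial UMIs per cell.

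Counts were summed per cluster and library and divided by the total of the same cells (CPM), with exact 95% Poisson intervals. Clopper-Pearson intervals were used for shares, and ratios of W to UW an exact conditional binomial interval. All intervals cover counting error only. No test was made, since cells of a pool are not replicates. Cells were thinned without replacement to 5000 or 2000 UMIs, leaving out shallower cells. In thinning to 2000 UMIs 126 of 710 cells of cluster 13 and 58 of 354 of cluster 14 were left out. Named genes were Gpha2, the 10 genes most like it (5 within each library), the hormone gene list, genes within 50 kb and the cell type markers. The 10 genes with the largest fold between the outer bins of cells in either direction were added after their values were seen. This fold was computed after adding 20 CPM to both levels. It was ranked only among genes above a minimum level in an outer bin, and only where both outer bins held enough cells. The gene and the lists were chosen with earlier results of these data known. No read, protein or further sample was analysed here. Python 3.11.15 with numpy 2.4.6, scipy 1.17.1 and pandas 2.3.3 was used, and R 4.3.3 with edgeR 4.0.16 and DESeq2 1.42.0 for other scalings. The ratio and likeness computations were tested on simulated counts.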

Additional observations from a re-analysis of the deposited data

Results flagged for a closer look

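The direction of the difference between W and UW was not the same in every cluster. Gpha2 was lower in W in cluster 9, with a log2 ratio of -0.46, and higher in W in cluster 0 (2.36), cluster 10 (3.48) and cluster 3 (1.36). In W, cluster 3 had a mean of 2.76 Gpha2 UMIs per cell at full depth against 0.835 to 1.41 in immune clusters, and a share of cells with a UMI within their range after thinning to 2000 UMIs. With 1 library per condition, the difference between clusters was not tested.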

How the results depend on the processing

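No paired analysis was possible because there was 1 library per condition. The log2 ratio of W to UW kept its direction in all 12 clusters under all 86 combinations of cluster and alternative, and in 68 of them it stayed within the counting interval. In cluster 9 (-0.46) it was -0.43 with a stricter filter on cells and -0.42 with median-of-ratios factors. In cluster 0 (2.36) it was 2.33 with the stricter filter, 2.54 in thinned cells, 2.42 with TMM factors, 2.44 with median-of-ratios factors and 2.10 in the cells below the median keratin share. In cluster 3 (1.36) it was 1.503 in thinned cells and 1.24 with TMM factors. The largest shifts were in cluster 7 (1.73), with 1.33 by TMM factors and 1.30 by median-of-ratios factors. In thinned cells it was 0.96 in cluster 5 (1.17) and 2.82 in cluster 4 (2.55). The cause of these shifts was not tested. Cells without any UMI of Krt12, Krt5 or Krt14 could not be compared, since there were 0 in cluster 0 and 1 in cluster 10. The keratin split, the same alternatives for the other clusters, and the removal of shared barcodes, which moved no ratio by more than 0.014 on the log2 scale, were chosen after seeing the data. Of the 10 genes most like Gpha2, 4 were also among the 10 by Spearman's rho, 2 among the 10 in UW alone and 1 in W alone. In cluster 13, with 2509 UMIs in the median cell, a share of cells with a UMI is limited by depth.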
